A study of Rattus norvegicus with 24 samples.

Results

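The genes described here are 8 that renal medullary cells use to withstand a salty, urea-rich interstitium: Nfat5, Akr1b1, Sord, Slc5a3, Slc6a12, Slc6a6, Slc14a1 and Slc14a2. They were taken by symbol from the 17334 genes measured by RNA sequencing of left kidneys from 24 rats, all males of the strain PKD/Mhm (Cy/+), a Sprague Dawley-derived line whose mutated Anks6 allele gives cystic kidneys. All animals were labelled as heterozygous for that allele and 8 months old, with 6 in each of 4 groups. Per the study's methods, cystic rats were told from non-cystic ones by feeling the abdomen, and no genotype of single animals was used here. Control rats (Ctrl) were left untreated. The treated rats were dosed monthly over 6 months. CoCM rats received culture supernatant of ABCB5+ stromal cells from human skin kept together with macrophages derived from THP-1 cells, which had been activated by LPS and IFN-γ. Its route is intraperitoneal in the paper's abstract and intravenous in its methods, so route is not settled where CoCM is compared with the cell groups. The remaining groups received ABCB5+ cells themselves into the peritoneum (i.p. ABCB5+) or into a vein (i.v. ABCB5+). Ctrl rats have numbers up to 24 and treated rats have numbers from 26 on, so animal order and treatment cannot be told apart in any comparison with Ctrl. The labels call the material whole left kidney, and how much of each piece was medulla was not given.

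Cells of the renal medulla hold small organic osmolytes so that they keep their volume without raising their salt content. Nfat5, the tonicity-responsive transcription factor also called TonEBP, switches on the genes that make or import them: Akr1b1 (aldose reductase) makes sorbitol from glucose, Slc5a3 (SMIT1) imports myo-inositol, Slc6a12 (BGT1) imports betaine and Slc6a6 (TauT) imports taurine. Sord (sorbitol dehydrogenase) removes sorbitol by turning it into fructose. Urea is moved by Slc14a1 (UT-B) in descending vasa recta and red blood cells, and by Slc14a2 (UT-A) in the inner medullary collecting duct and the thin descending limb.

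Total estimated counts ran from 9304629 to 14125457 per animal. A single axis held 56.3% of the variance of all genes, and 4 treated animals lay at its end: CoCM animal 39, i.p. animal 38 and i.v. animals 36 and 37 scored from 80.8 to 97.4, against at most 11.5 in the other 20. All 6 injured tubule markers and all 7 macrophage and T cell markers were lower in each of those 4 than in any other animal. These 4 carry the same Cy/+ label as the rest, and many of the differences between groups that lean on them are also given without them. Of all 12778 genes, 24.2% did not overlap between the 4 and the other 20 (14.2% lower in the 4). The cause of their profile was not tested.

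The 250 bases ahead of the annotated start are shown for the 3 osmolyte transporters (RefSeq, assembly GRCr8, plus strand) to set out the stretch next to the start. Nfat5 binds tonicity elements, many of which lie farther from their genes than this window reaches. Capitals mark the core of that element, TGGAAA on either strand. The letters TTTCCA are this core read on the opposite strand.
Slc6a6 (taurine), chr4:125752252-125752501: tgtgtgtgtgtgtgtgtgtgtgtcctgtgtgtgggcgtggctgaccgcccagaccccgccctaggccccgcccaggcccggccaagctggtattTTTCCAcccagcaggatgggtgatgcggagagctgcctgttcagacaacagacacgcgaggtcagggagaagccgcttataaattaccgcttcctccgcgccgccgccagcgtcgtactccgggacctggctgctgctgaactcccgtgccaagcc
Slc5a3 (myo-inositol), chr11:44799537-44799786: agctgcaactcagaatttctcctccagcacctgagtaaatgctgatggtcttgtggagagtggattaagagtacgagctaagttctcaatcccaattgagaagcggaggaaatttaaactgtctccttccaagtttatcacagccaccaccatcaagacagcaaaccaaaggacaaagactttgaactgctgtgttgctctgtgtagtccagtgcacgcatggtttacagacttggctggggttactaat
Slc6a12 (betaine), chr4:156257268-156257517: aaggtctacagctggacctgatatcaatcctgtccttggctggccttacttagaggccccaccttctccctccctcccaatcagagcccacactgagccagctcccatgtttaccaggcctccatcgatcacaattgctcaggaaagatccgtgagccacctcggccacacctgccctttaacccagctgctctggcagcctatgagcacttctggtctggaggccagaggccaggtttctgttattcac
The core was found only ahead of Slc6a6, from 156 to 151 bases before its start, where it also matched the longer TonE consensus. Windows of 250 bases before to 50 after a start were at hand for 6 of the 8 genes, 7 in all because Slc14a2 has a pair of starts, and Nfat5 and Akr1b1 had none. Of all 33469 windows in the table, 22.7% held the core and 5.98% the consensus. A match is a description of letters, and absence here covers this window alone.

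Levels of the 8 genes were ordered on the TPM scale, which allows for transcript length. Sord stood first with a mean of 212 TPM (SD 77.3, n = 24), above Akr1b1 in 24 of 24 animals. Akr1b1 followed with 79.2 TPM (SD 20.8), above Nfat5 in 24 of 24 animals. Nfat5 had 27.3 TPM (SD 8.22) and Slc6a6 20.1 TPM (SD 10.8), and their order held in 22 of 24 animals although their ranges overlapped. A wide step separated the taurine transporter from the betaine transporter, which had 2.90 TPM (SD 1.27) and was below Slc6a6 in 24 of 24 animals. Slc6a12, Slc5a3 (1.72 TPM, SD 1.24) and Slc14a1 (1.49 TPM, SD 1.45) overlapped widely, and Slc5a3 exceeded Slc14a1 in only 15 of 24 animals. Slc14a2 came last, with a median of 0.213 TPM and a range from 0.0 to 19.9 TPM. The myo-inositol, betaine and urea carriers thus rested on far fewer reads than the enzymes of sorbitol turnover.

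None of the 8 genes rose or fell past the threshold in any comparison of groups. Slc14a2 had too few reads for the test, so 7 of the 8 were tested among 12778 genes with edgeR at an adjusted p of 0.05. In CoCM against Ctrl 0 of the 7 were called, where the call rate of all genes was 0.00783% (1 gene, Ovca2, which is not one of the 8). Calls were 0 of 7 against 0.0% of all genes in i.p. ABCB5+ against Ctrl, in i.v. ABCB5+ against Ctrl, in i.p. against i.v. ABCB5+, and in CoCM against the mean of both cell groups. At an unadjusted p under 0.05, 1 of 7 passed in CoCM against Ctrl (11.9% of all genes) and 1 of 7 in CoCM against the cell groups (7.0% of all genes), and it was Slc6a6 both times. None of the 7 passed that mark in i.p. against Ctrl (1.77% of all genes), i.v. against Ctrl (5.78%), i.p. against i.v. (2.14%), or in the test over all 4 groups (4.71%). The median log2 difference of the 7 genes was -0.23 in CoCM against Ctrl (0.01 over all genes), -0.09 in i.p. against Ctrl, -0.15 in i.v. against Ctrl (0.01 over all genes) and -0.20 in CoCM against the cell groups (-0.01 over all genes). The ranges of CoCM and Ctrl overlapped in each of the 7 genes and did not overlap in 1.38% of all genes.

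**Figure D1:**
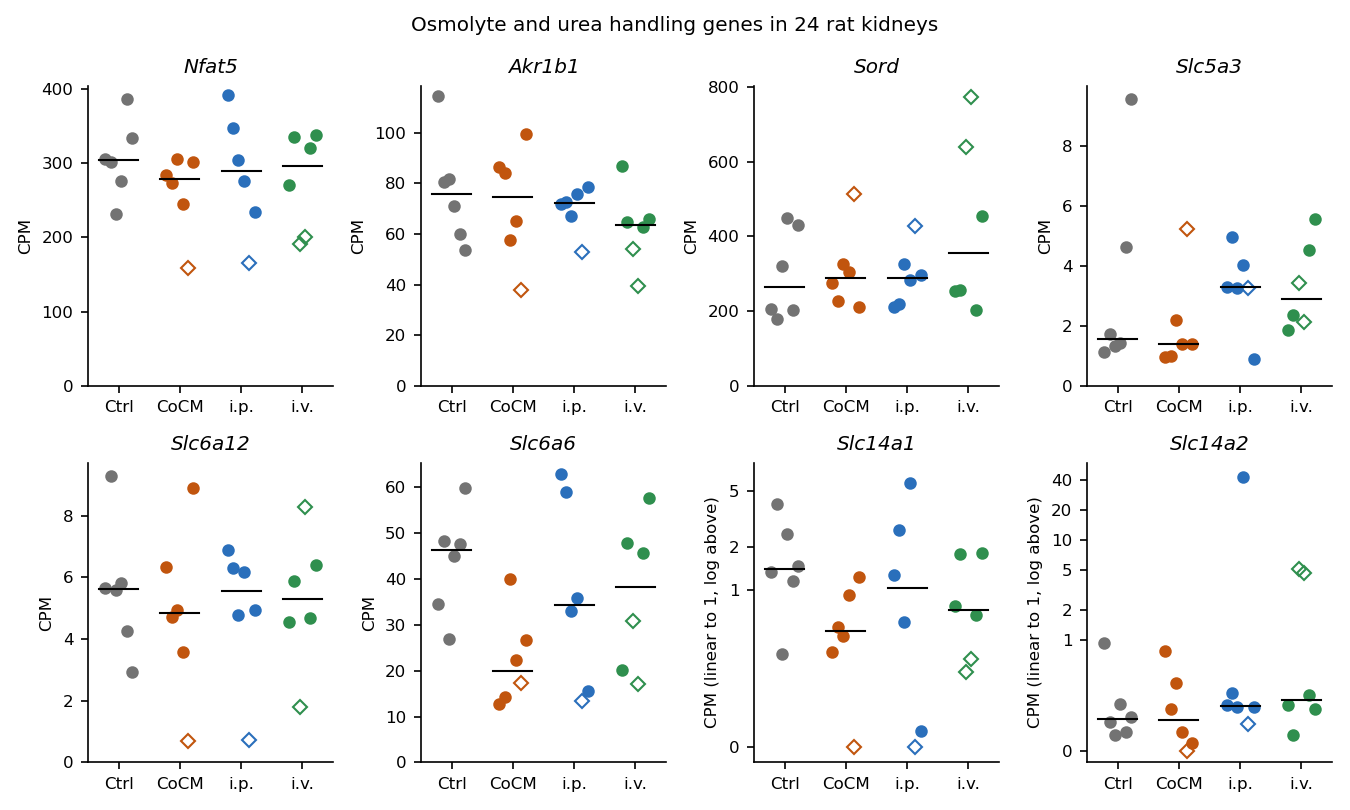
Reads scaled to library size (CPM) of the 8 genes in each animal, by group; open diamonds are animals 36, 37, 38 and 39 and bars are group medians. Slc6a6 was below the lowest Ctrl value in 5 of 6 CoCM animals, and Slc14a2 reached 42.9 CPM in a single i.p. animal.

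The taurine transporter Slc6a6 was the gene of the 8 with the clearest difference between groups, and it was lower with CoCM. On the CPM scale (counts scaled to library size) Ctrl animals ran from 26.96 through a median of 46.3 to 59.9, and CoCM animals from 12.8 through 19.9 to 39.9. The i.p. group ran from 13.3 through 34.4 to 62.9 CPM and the i.v. group from 17.1 through 38.2 to 57.5 CPM. All 6 CoCM animals lay below the Ctrl mean and 5 of them below every Ctrl animal, whereas both cell groups spanned nearly the whole range. The log2 fold change of CoCM against Ctrl was -0.98 ± 0.37 (SE, n = 6 and 6, 95% confidence interval -1.75 to -0.20), with an adjusted p of 0.363 in edgeR. Against the cell groups it was -0.72 ± 0.33 (n = 6 and 12), with an adjusted p of 0.688. Leaving out animals 36, 37, 38 and 39 gave -0.94 and -0.88, with adjusted p of 0.237 and 0.332. Against Ctrl, i.p. ABCB5+ differed by -0.25 (95% confidence interval -1.01 to 0.51) and i.v. ABCB5+ by -0.26 (-1.02 to 0.50), so a drop as large as that point estimate with CoCM lies inside both intervals.

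Slc5a3, the myo-inositol transporter, spread widely inside each group. Among Ctrl rats it ran from 1.12 through a median of 1.57 to 9.56 CPM, and among CoCM rats from 0.979 through 1.39 to 5.23 CPM. Among i.p. rats it ran from 0.888 through 3.28 to 4.95 CPM, and among i.v. rats from 1.87 through 2.90 to 5.57 CPM. The highest CoCM value belonged to animal 39, one of the 4 that stood apart. CoCM against Ctrl was -0.72 ± 0.53 (SE) on the log2 scale with an adjusted p of 0.550 in edgeR. The highest Ctrl value, 9.56 CPM, was that of animal 24, and without it the difference was -0.055. Without the 4 animals it was -1.25 ± 0.56 (adjusted p = 0.271 in edgeR), when 16.9% of 12884 genes passed that unadjusted mark and 2 of the 7 did, Slc6a6 and Slc5a3. In CoCM against the cell groups without those animals the same pair passed, at 13.9% of all genes.

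Slc6a12, the betaine transporter, had close medians in all groups, with 5.63 CPM for Ctrl, 4.84 for CoCM, 5.56 for i.p. cells and 5.29 for i.v. cells. Ctrl animals reached from 2.93 to 9.29 CPM, and the lowest treated animals were 39, 38 and 36 with 0.683, 0.727 and 1.80 CPM. Animal 37, the other one of the 4, had 8.27 CPM and so did not share that low level. The log2 difference of CoCM from Ctrl was -0.19 ± 0.44 (SE, adjusted p = 0.848 in edgeR) and 0.02 without the 4 animals.

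**Figure D2:**
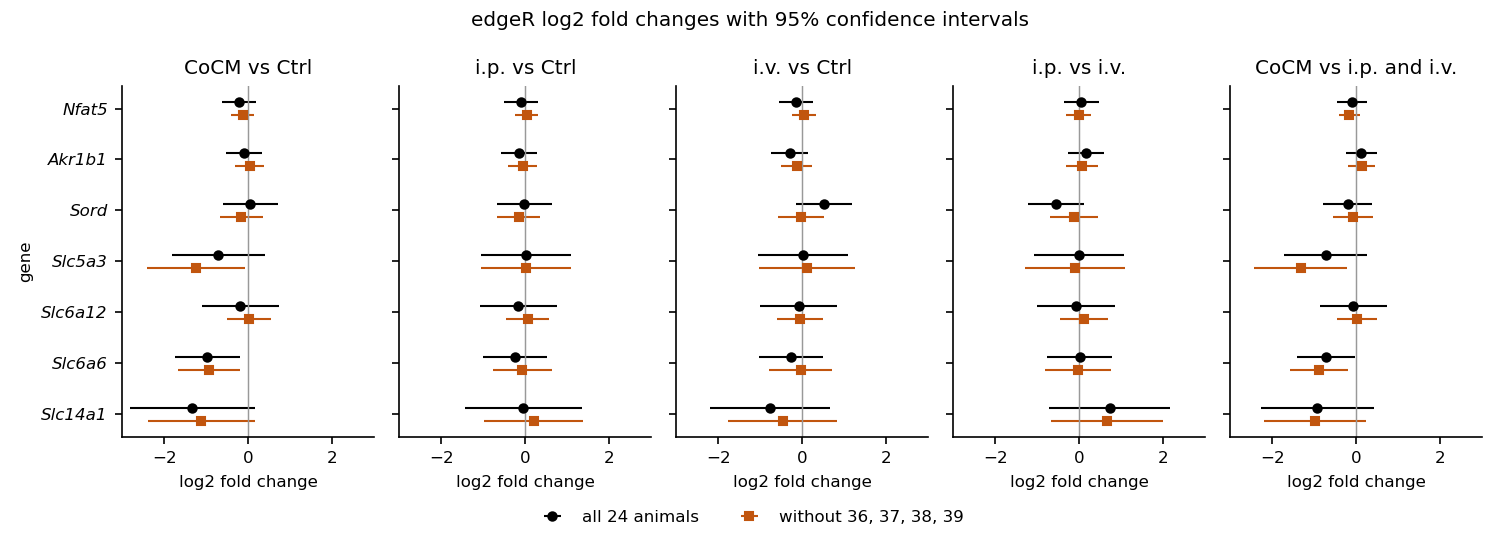
Log2 fold changes (x axis) of the 7 tested genes (y axis) in the 5 comparisons, with 95% confidence intervals from edgeR, for all 24 animals and without animals 36, 37, 38 and 39. The Slc6a6 interval lay below 0 for CoCM against Ctrl (-1.75 to -0.20) and against the cell groups, but no adjusted p was under 0.05.

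Slc6a6, Slc5a3 and Nfat5 were high or low in the same animals, and a general feature of the libraries went with them. Over the 20 animals other than the 4, Pearson's r of log2 CPM was 0.77 between Slc5a3 and Slc6a6, 0.73 between Nfat5 and Slc6a6 and 0.68 between Nfat5 and Slc5a3, given as descriptions. After these values were seen, a transcript length gauge was made for each library: the mean centred log2 CPM of the 10% of genes with the longest transcripts less that of the 10% with the shortest (1277 genes each, the 8 left out). Over the 20 animals, Slc6a6 followed this gauge with r = 0.89 and Spearman's rho = 0.90 (permutation p = 1e-05, the smallest 100000 resamples can give, adjusted p = 4e-05 over 8 genes). Nfat5 had r = 0.83 (adjusted permutation p = 4e-05) and Slc5a3 r = 0.79 (adjusted permutation p = 0.00024), and their rho values were both 0.84. Leaving out the pair of animals farthest on the gauge gave r = 0.90, 0.77 and 0.79. Such values were common: 3.62%, 9.44% and 13.7% of all 12778 genes had an r at least as large in size as Slc6a6, Nfat5 and Slc5a3. Akr1b1 went the other way with r = -0.57 (rho = -0.64, adjusted permutation p = 0.0157), a size reached by 32.8% of all genes. Slc14a1 had r = 0.47 (adjusted permutation p = 0.0542) and rho = 0.57 (adjusted permutation p = 0.0151), and r was -0.07 for Sord, -0.02 for Slc6a12 and -0.23 for Slc14a2. By length, Nfat5 was at percentile 99.8 of the tested genes, Slc6a6 at 59.5, Slc5a3 at 58.4 and Akr1b1 at 20.8.

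The length gauge was also lower with CoCM, though like Slc6a6 it did not pass after adjustment. CoCM libraries ran from -0.38 to -0.08 and Ctrl libraries from -0.23 to 0.41, a difference in means of -0.28 (two-sided exact permutation p = 0.0455, adjusted p = 0.205 over 5 comparisons, n = 6 and 6). Against the cell groups the difference was -0.21 (two-sided exact permutation p = 0.0818, adjusted p = 0.205, n = 6 and 12). With the gauge as a term in the edgeR fit, the log2 difference of Slc6a6 between CoCM and Ctrl became -0.30 (adjusted p = 1.0), that of Slc5a3 became 0.29 and that of Nfat5 0.05. The number of all genes at an unadjusted p under 0.05 was 734 in that fit against 1523 without the gauge. The gauge is itself read from these libraries, so library make-up and a change of these genes within the kidney cannot be told apart here.

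**Figure D3:**
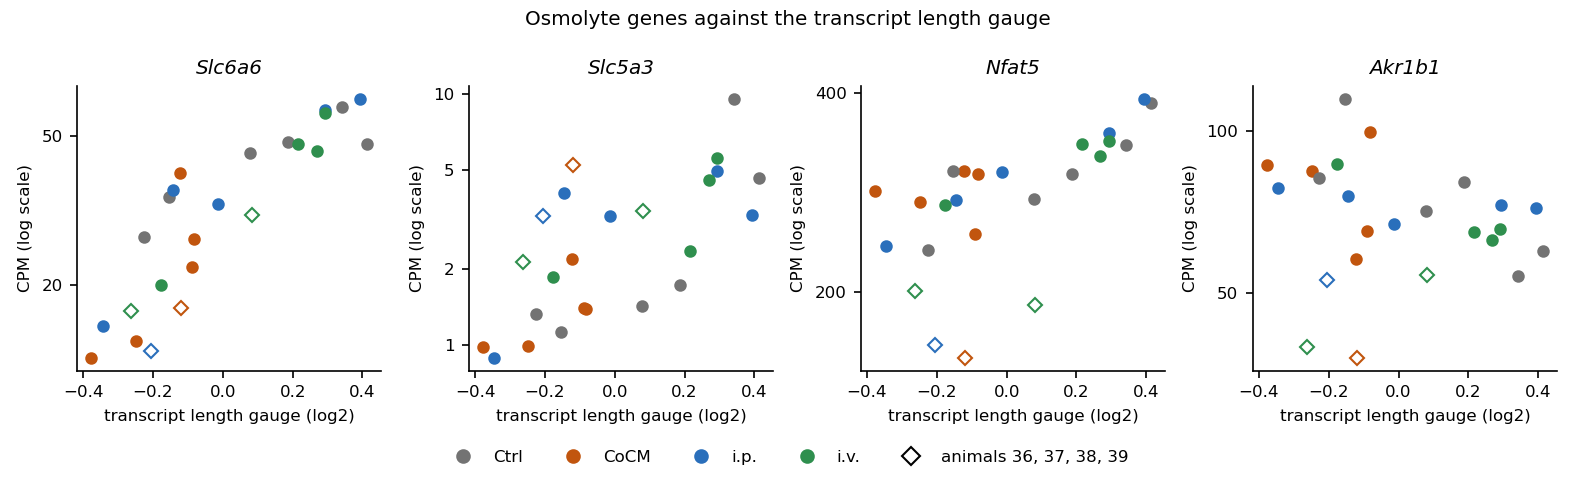
CPM of Slc6a6, Slc5a3, Nfat5 and Akr1b1 (log y axis) against the transcript length gauge (log2, x axis) in 24 animals, coloured by group, open diamonds for animals 36, 37, 38 and 39. Slc6a6 is higher where the gauge is higher (r = 0.89 over the 20 filled points) and CoCM animals lie at -0.38 to -0.08.

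Nfat5 itself had similar levels in the groups. It ran from 231 through a median of 304 to 386 CPM among Ctrl rats and from 159 through 279 to 305 CPM among CoCM rats. Among i.p. rats it ran from 166 through 290.1 to 392 CPM, and among i.v. rats from 191 through 296 to 339 CPM. The lowest values of every treated group belonged to the 4 animals that stood apart, at 159 to 201 CPM, and did not overlap with the other 20, at 231 to 392 CPM, as in 24.2% of all genes. The 4 were set apart on all genes, so this is a description. CoCM against Ctrl was -0.23 ± 0.20 (SE, 95% confidence interval -0.63 to 0.18, adjusted p = 0.595 in edgeR), and -0.13 without the 4 animals. The intervals for i.p. ABCB5+ (-0.50 to 0.31) and i.v. ABCB5+ (-0.55 to 0.26) against Ctrl left out a change of Nfat5 by 1 log2 unit in either direction.

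Akr1b1, which makes sorbitol, ran from 53.7 through a median of 75.7 to 115 CPM among Ctrl rats and from 37.9 through 74.7 to 99.5 CPM among CoCM rats. Among i.p. rats it ran from 52.8 through 72.3 to 78.4 CPM, and among i.v. rats from 39.6 through 63.7 to 86.9 CPM. The groups overlapped and their medians stood close together. The largest log2 difference from Ctrl was -0.30 ± 0.21 (SE) in i.v. ABCB5+ (adjusted p = 0.678 in edgeR), which was -0.14 without the 4 animals.

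Sord, which consumes sorbitol, ran from 180.2 through a median of 264 to 449 CPM among Ctrl rats and from 211 through 289 to 513 CPM among CoCM rats. Among i.p. rats it ran from 212 through 289.7 to 427 CPM, and among i.v. rats from 202 through 354 to 772 CPM. The i.v. group's upper end was set by animals 36 and 37. The i.v. difference from Ctrl was 0.52 ± 0.32 (SE, adjusted p = 0.673 in edgeR) with all animals and -0.04 without the 4. On a per-length scale, Sord exceeded Akr1b1 by 4.73 to 11.4 times in the 4 animals and by 1.05 to 4.68 times in the other 20, with no overlap. The 4 animals were set apart on all genes, these included, so this is a description without a test. Median Sord to Akr1b1 ratios were 2.14 for Ctrl, 2.29 for CoCM, 2.20 for i.p. cells and 3.17 for i.v. cells, with ranges that overlapped.

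**Figure D4:**
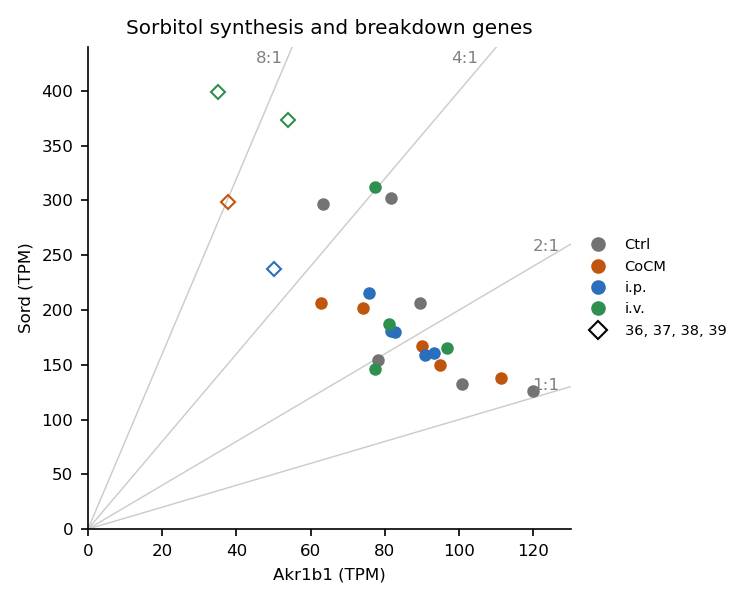
Sord (TPM, y axis) against Akr1b1 (TPM, x axis) in 24 animals by group, with grey lines at fixed ratios of Sord to Akr1b1. The 4 open diamonds (animals 36, 37, 38 and 39) lie at ratios of 4.73 to 11.4, above the other 20 animals at 1.05 to 4.68.

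The urea transporter genes were near the limit of detection. Slc14a1 ran from 0.588 through a median of 1.397 to 4.05 CPM among Ctrl rats and from 0.0 through 0.734 to 1.24 CPM among CoCM rats. Among i.p. rats it ran from 0.0 through 1.03 to 5.68 CPM, and among i.v. rats from 0.475 through 0.869 to 1.83 CPM. These values stood for 0 to 79 reads per animal. The counts of 0 in CoCM animal 39 and i.p. animal 38 allow levels of up to 0.341 and 0.363 CPM (3 counts, counting error only). CoCM against Ctrl was -1.33 ± 0.72 (SE, 95% confidence interval -2.82 to 0.15, adjusted p = 0.448 in edgeR) and -1.12 without the 4 animals. All 6 CoCM animals and all 6 i.v. animals lay below the Ctrl mean of 1.85 CPM, but so did 4 of the 6 Ctrl animals, and only 1 CoCM animal lay below the Ctrl range. Red blood cells express this gene too, and the 5 haemoglobin transcripts took 1.03% of the counts in Ctrl animal 1 against 0.0129% to 0.311% elsewhere. Slc14a1 in that animal was at 1.33 CPM, and the part of red cells in the Slc14a1 values was not tested. In bulk kidney, fewer vasa recta or red cells and less transcript per cell cannot be told apart.

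Slc14a2 was near the floor in nearly every kidney. In 21 of the 24 animals it had from 0 to 14 reads. I.p. animal 32 had 597 reads (42.9 CPM, 19.9 TPM), and i.v. animals 36 and 37 had 55 and 51 reads (5.22 and 4.74 CPM). Group medians were 0.287 CPM for Ctrl, 0.278 for CoCM, 0.410 for i.p. cells and 0.459 for i.v. cells, and the 5 other i.p. animals ran from 0.242 to 0.526 CPM. A fit without the low-count filter put i.p. ABCB5+ 4.25 log2 units above Ctrl (unadjusted p = 0.0028, adjusted p = 0.986 in edgeR), with animal 32 as the only i.p. animal above the highest Ctrl value of 0.980 CPM. That fit gave 2.20 for i.v. ABCB5+ against Ctrl (adjusted p = 0.707 in edgeR). For CoCM against the cell groups, which include animals 32, 36 and 37, it gave -3.29 (unadjusted p = 0.0118, adjusted p = 0.708 in edgeR).

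The same i.p. animal had the highest level of inner medulla markers. The inner medulla gauge (mean centred log2 CPM of the 6 tested of 8 thin limb and papilla markers) was 0.79 in animal 32 and ran from -0.73 to 0.29 in all others. Of the 8 markers 4 were highest in that animal, and so were 2 of 6 thick ascending limb markers. Slc4a11 was one of them, at 13.32 against at most 13.28 TPM elsewhere, and Corin another, while Cryab had 340.4 TPM there and 909 TPM in i.v. animal 37. Epha7 had 1.86 TPM there and 3.53 TPM in Ctrl animal 23, and Aqp4 had 16.9 TPM there and 19.4 TPM in Ctrl animal 23. Slc4a11, Corin, Epha7, Aqp4, Sptssb and Upk1a are named after their values were seen. Corin stayed low even so, at 0.439 TPM, and Sptssb, with 2.06 TPM there, had 9.06 TPM in Ctrl animal 22. Slc14a1 was also highest in animal 32, at 5.68 CPM. Pelvis urothelium markers were high there too, with Upk1a at 24.95 TPM. Ctrl animal 22 had 41.2 TPM of Upk1a and 0.427 CPM of Slc14a2. The part of these markers in the Slc14a2 value was not tested.

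**Figure D5:**
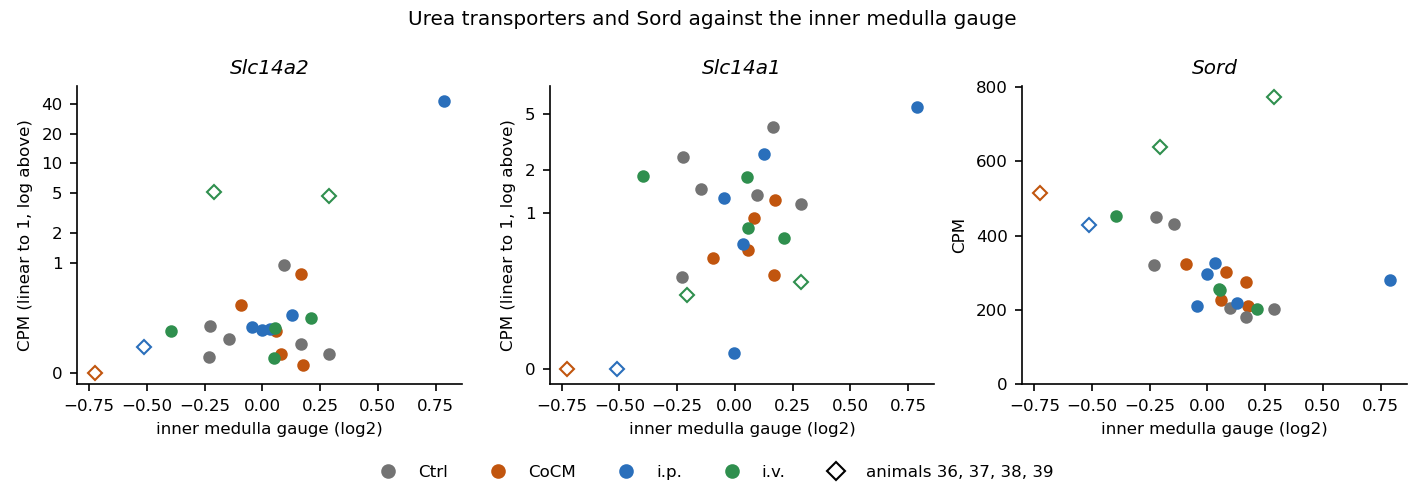
CPM of Slc14a2, Slc14a1 (both linear to 1 and log above) and Sord (linear) against the inner medulla gauge (log2) in 24 animals by group, with open diamonds for animals 36, 37, 38 and 39. I.p. animal 32 sits alone at a gauge of 0.79 with 42.9 CPM of Slc14a2.

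No difference between groups passed adjustment in the medulla gauges. The inner medulla gauge spanned -0.23 to 0.29 among Ctrl rats, -0.73 to 0.17 among CoCM rats, -0.51 to 0.79 among i.p. rats and -0.40 to 0.29 among i.v. rats. The CoCM mean was lower than the Ctrl mean by 0.05 (two-sided exact permutation p = 0.818, n = 6 and 6). Over 7 gauges of medulla, pelvis and cortex and 5 comparisons, the smallest adjusted value among 35 two-sided exact permutation tests was 0.871. With the inner medulla gauge as a term in the fit, 0 of the 7 genes were called in any of the 5 comparisons, where 1 of 12778 genes was called in CoCM against Ctrl and 0 in the others.

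Over the 20 animals, 24 pairs of a gene and a gauge were compared. Sord was lower where the inner medulla gauge was higher, with rho = -0.73 (permutation p = 0.00033, adjusted p = 0.00792) and r = -0.56 (adjusted permutation p = 0.0738), and r was -0.79 without the pair of animals farthest on the gauge. Slc6a12 had r = -0.63 with the thick ascending limb gauge (rho = -0.62, adjusted permutation p = 0.0556 and 0.0575) and Slc6a6 r = 0.60 with the podocyte gauge (adjusted permutation p = 0.0556). Slc14a2 had r = 0.66 with the inner medulla gauge (adjusted permutation p = 0.109), and r was 0.0022 without the pair farthest on the gauge and -0.013 without animal 32 alone. With the inner medulla gauge, r was -0.14 for Slc6a6, 0.04 for Slc5a3 and 0.14 for Slc6a12.

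The genes whose log2 CPM was most like each of the 8 over the 20 animals were named by Pearson's r, as a description. For Sord they included Acsm2 (0.97) and Glyatl2 (0.97), enzymes of acyl-CoA metabolism. For Akr1b1 they were Prr13 (0.96), Lgals1 (0.96) and Tuba1b (0.95). For Nfat5 they included Trrap (0.92) and Myof (0.90). For Slc6a6 they were Tulp4 (0.98), Fam168b (0.97) and Agps (0.97), and for Slc5a3 Zhx3 (0.94), Erbb4 (0.94) and Abhd2 (0.93). The betaine and urea transporters had weaker neighbours: Apobec1 (0.80), Limk1 (0.79) and Sipa1 (0.79) for Slc6a12, Rgs7 (0.77), Pmaip1 (0.76) and Prrg1 (0.75) for Slc14a1. For Slc14a2 the nearest were Guca2b (0.82), Psca (0.76) and Macir (0.74), but rho of Guca2b was 0.27. These animals share their depth and length gauge differences, and none of the 8 was among the closest neighbours of another.

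The other genes of osmolyte, urea and concentrating pathways were read in the same way, and 0 passed the adjusted threshold in any list or comparison. Of 10 genes tested for osmolyte synthesis and breakdown, 5 were higher at an unadjusted p under 0.05 in i.v. ABCB5+ against Ctrl (5.78% of all genes passed) and 0 were lower, with a median log2 fold change of 0.83 against 0.01 for all genes. Without animals 36, 37, 38 and 39 the count was 0 of 10 (1.23% of all genes) and the median 0.00066. In the same comparison, with all animals, 2 of 4 markers of the outer stripe proximal tubule were higher (median 2.15). Without the 4 animals it was 0 of 4 (median 0.084). The part of these markers in the values of the list was not tested. Bhmt, which uses up betaine, was higher by 1.44 ± 0.61 (SE) and Csad, of taurine synthesis, by 1.20 ± 0.51, each with an adjusted p of 0.673 in edgeR, and without the 4 animals these values were -0.072 and -0.025. Animal 37 had the highest Bhmt (76.7 TPM) and Csad (271 TPM) of all 24, and the 4 animals held 22.1 to 76.7 TPM of Bhmt against 4.21 to 28.4 TPM in the others. Isyna1, which makes myo-inositol, was 0.36 ± 0.13 higher in CoCM than in Ctrl (adjusted p = 0.328 in edgeR) and 0.39 without the 4 animals. It was the 1 of the 10 genes past the unadjusted mark in that comparison, where 11.9% of all genes passed.

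Of 7 other tonicity response genes tested, 2 were higher at the unadjusted mark in i.v. ABCB5+ against Ctrl (5.78% of all genes passed). They were Cryab, a small heat shock protein (1.15 ± 0.42 SE), and Sgk1, a salt-regulated kinase (0.61 ± 0.28 SE), each with an adjusted p of 0.673 in edgeR. Without the 4 animals Cryab was at -0.056 and Sgk1 at 0.56, and 0 of the 7 passed (1.23% of all genes). In i.p. against i.v. ABCB5+, 1 of the 7 was higher and 2 were lower at the unadjusted mark (2.14% of all genes). With all animals, the lower ones were Cryab (-0.97 ± 0.41 SE) and Sgk1 (-0.65 ± 0.28 SE), each with an adjusted p of 1.0 in edgeR. Cryab peaked at 909 TPM in i.v. animal 37, which stood apart. Without the 4 animals 0 of the 7 were higher and 1 was lower (1.13% of all genes), and Cryab did not pass. With all animals, the water channel Aqp2 differed by 0.53 ± 0.24 (SE) between i.p. and i.v. ABCB5+ (adjusted p = 1.0 in edgeR). Between i.p. ABCB5+ and Ctrl it differed by 0.50 ± 0.24 (adjusted p = 0.978 in edgeR). Without the 4 animals Aqp2 did not pass the unadjusted mark in either comparison. In CoCM against Ctrl none of the 7 passed the mark (11.9% of all genes passed) and their median was 0.32.

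Of 9 genes of vasopressin signalling and salt transport, 4 were higher at the unadjusted mark in i.p. ABCB5+ against Ctrl and 0 lower (1.77% of all genes passed), with a median of 0.49. Without the 4 animals 1 of 9 passed (1.39% of all genes) and the median was 0.32. In the same comparison, with all animals, 2 of 7 principal cell markers were higher (median 0.47) and 1 of 6 thick ascending limb markers (median 0.61). Without the 4 animals 0 of 7 and 0 of 6 passed (medians 0.22 and 0.45). The principal cell list shares Avpr2 and Aqp3 with the pathway, and the thick ascending limb list shares Slc12a1 and Kcnj1. The part of these markers in the pathway's values was not tested. With all animals, the vasopressin receptor Avpr2 was higher in i.p. ABCB5+ than in Ctrl by 0.47 ± 0.20 (SE, adjusted p = 0.978 in edgeR). Without the 4 animals it did not pass the unadjusted mark. Avpr2 was 0.43 ± 0.20 higher in CoCM than in Ctrl (adjusted p = 0.411 in edgeR). In that comparison 1 of the 9 genes passed the unadjusted mark with all animals (11.9% of all genes). Without the 4 animals it was 0 of 9 (16.9% of all genes).

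Of 6 genes of urea and arginine metabolism, 2 were higher at the unadjusted mark in i.v. ABCB5+ against Ctrl (5.78% of all genes) and 1 in CoCM against Ctrl (11.9% of all genes). Without the 4 animals 0 of 6 passed in i.v. ABCB5+ against Ctrl (1.23% of all genes). With all animals, 2 of 4 markers of the outer stripe proximal tubule were higher in that comparison (median 2.15), and their part in these values was not tested. Arg2, the kidney arginase that yields urea, was 0.69 ± 0.32 (SE) higher in CoCM (adjusted p = 0.404 in edgeR) and 0.68 ± 0.32 higher in i.v. ABCB5+ (adjusted p = 0.673). These comparisons share the Ctrl animals, so the pair of values is not independent. Agmat was 1.55 ± 0.63 (SE) higher in i.v. ABCB5+ (adjusted p = 0.673 in edgeR), with its peak of 283 TPM in animal 37. Without the 4 animals, Arg2 was at 0.52 in CoCM and 0.026 in i.v. ABCB5+ against Ctrl, and Agmat at 0.21 in i.v. ABCB5+.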

How the data were processed

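RNA of the left kidney of 24 rats was sequenced by the study, and groups came from the sample labels. The authors deposited, per animal, a table of estimated counts (not normalized) and a table of TPM values (scaled for transcript length and library total) for 17334 Entrez genes. The submitters' processing notes name Trim Galore 0.6.4, kallisto 0.4.6 and rn6, while DESeq2 and an annotation package for the human genome appear in the study's methods. Symbols came from RefSeq GRCr8 (17179 genes matched).

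Estimated counts were rounded, filtered with filterByExpr by group (12778 genes left), scaled by TMM and fitted in edgeR 4.0.16 (R 4.3.3) over all 24 samples, with quasi-likelihood F-tests and Benjamini-Hochberg adjustment over all genes. DESeq2 1.42.0 and limma 3.58.1 were alternatives. The common biological coefficient of variation was 0.299. CPM used TMM-scaled library sizes, and log2 CPM a prior count of 2. The floor of 3 counts is 0.363 CPM in the smallest library, and covers counting error only. No sample was paired. Gauges are mean centred log2 CPM of a marker list, compared by two-sided exact permutation over animals (924 divisions for 6 against 6).

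All 8 genes were named in every comparison. Of other lists the 3 genes with the smallest p over 4 groups were eligible to be named, and 3 nearest neighbours were taken per gene. Some genes that these rules name are not reported here. Members, lists and the 4 animals set apart were chosen with earlier results of these data known. The length gauge and the fits without the 4 animals were added after seeing the data. On simulated counts for CoCM against Ctrl (12731 genes), 69% of genes changed 2-fold and 92% of genes changed 4-fold were called, and 4.73% of calls were false. The simulated animals shared the same mean profile apart from the planted changes, with no animals set apart and no length gauge differences. These rates therefore need not hold for the measured libraries. Alternatives were other size factors, filters, sample sets, thinned counts, limma on log2(TPM + 1) and log2(TPM + 0.1), voom weights, DESeq2, gauges as terms, and leaving out each animal.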

Additional observations from a re-analysis of the deposited data

Results flagged for a closer look

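In groups of 6, an animal was singled out when its gap to the nearest other, over the group's range, passed Dixon's critical value. For independent, normally spread values, chance alone singles out about 1 in 20 groups, or 4.4 of the 88 combinations of measure and group. Here 12 were found, 4 of them among the 8 genes. The measures share animals and some rest on few reads, so this count is not a test of an excess. Slc14a2 in i.p. animal 32 was at 42.95 CPM against 0.242 to 0.526 CPM in the other i.p. animals, and in Ctrl animal 1 at 0.9797 CPM (14 reads) against 0.147 to 0.427 CPM. Slc5a3 in CoCM animal 39 was at 5.235 CPM against 0.979 to 2.21 CPM. Slc6a12 in i.p. animal 38 was at 0.7268 CPM against 4.78 to 6.88 CPM.

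The others were marker scores (mean centred log2 CPM). In CoCM animal 39 the inner medulla score was -0.7259, the injured tubule score -3.105 and the macrophage and T cell score -3.212. In i.p. animal 38 the injured tubule score was -2.827, the macrophage and T cell score -2.181, the myofibroblast score -2.073 and the intercalated cell score 1.283. In i.p. animal 32 the pelvis urothelium score was 2.602. Of the 12, 9 were in animals 38 and 39, which also stood apart over all genes, and their cause was not tested.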

How the results depend on the processing

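No paired analysis was possible because no animal number occurs in more than 1 group. No member was called under any alternative or with any single animal left out. Slc6a6 in CoCM against Ctrl stayed between -1.14 and -0.30 over 12 alternatives (adjusted p from 0.105 to 1.0) and between -1.23 and -0.86 with single animals left out. The count of all genes called there, 1, became 0 with the length gauge as a term, only the groups compared, without animals 36, 37, 38 and 39, and with limma on log2(TPM + 1) or log2(TPM + 0.1), 183 with voom and sample quality weights, 79 with DESeq2, and 0 to 31 with single animals left out (31 without Ctrl animal 23). DESeq2 called 1 gene in i.p. and 1 in i.v. against Ctrl, 2 in i.p. against i.v. and 3 in CoCM against the cell groups, where voom called 2. Of the 24 pairs of gene and gauge, 0 passed by r and 1 by rho, against 5 and 4 with log2(TPM + 1) and 1 and 2 with values less their group mean. Low counts limit Slc5a3, Slc14a1 and Slc14a2. The cause of these shifts was not tested.

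Other shifts of sign were in log2 differences that passed no threshold. With transcript length gauge as covariate the values were in CoCM against Ctrl Nfat5 0.0535, Sord -0.16 and Slc5a3 0.29, in i.p. against Ctrl Slc14a1 0.12, in i.p. against i.v. Slc5a3 0.25, in CoCM against the cell groups Nfat5 0.12. With without animals 36, 37, 38 and 39 the values were in CoCM against Ctrl Akr1b1 0.0283, Sord -0.17 and Slc6a12 0.0173, in i.p. against Ctrl Nfat5 0.0292, Slc6a12 0.0616 and Slc14a1 0.20, in i.v. against Ctrl Nfat5 0.0441 and Sord -0.0375, in i.p. against i.v. Nfat5 -0.0149, Slc6a12 0.12 and Slc6a6 -0.0342, in CoCM against the cell groups Slc6a12 0.0162. With limma on log2(TPM + 1) the values were in CoCM against Ctrl Sord -0.0242, in i.p. against i.v. Slc5a3 0.00164 and Slc6a6 -0.0546. With limma on log2(TPM + 0.1) the values were in CoCM against Ctrl Sord -0.0241, in i.p. against i.v. Slc6a6 -0.0644 and Slc14a1 -0.25. With voom with sample quality weights the values were in CoCM against Ctrl Sord -0.13, in i.p. against Ctrl Nfat5 0.0158, in i.v. against Ctrl Nfat5 0.11, Sord -0.16 and Slc6a6 0.0241, in i.p. against i.v. Nfat5 -0.10, Sord 0.0836, Slc5a3 0.0417, Slc6a6 -0.28 and Slc14a1 -0.086. With inner medulla gauge as covariate the values were in i.p. against Ctrl Sord 0.0769, in i.v. against Ctrl Slc5a3 -0.00578, in i.p. against i.v. Slc5a3 0.14, Slc6a6 -0.00719 and Slc14a1 -0.0784. With counts thinned to the smallest library the values were in i.p. against Ctrl Slc5a3 -0.026, in i.v. against Ctrl Slc5a3 -0.00539. With DESeq2 the values were in i.p. against Ctrl Slc5a3 -0.00533. With single animals left out, the ranges that crossed 0 were in CoCM against Ctrl Akr1b1 -0.21 to 0.0526, Sord -0.16 to 0.18 and Slc6a12 -0.45 to 0.0292, in i.p. against Ctrl Nfat5 -0.21 to 0.0223, Akr1b1 -0.23 to 0.00966, Sord -0.16 to 0.11, Slc5a3 -0.17 to 0.69, Slc6a12 -0.29 to 0.0564 and Slc14a1 -0.87 to 0.35, in i.v. against Ctrl Slc5a3 -0.20 to 0.69 and Slc6a12 -0.27 to 0.12, in i.p. against i.v. Nfat5 -0.0515 to 0.18, Slc5a3 -0.17 to 0.21, Slc6a12 -0.25 to 0.15, Slc6a6 -0.21 to 0.19 and Slc14a1 -0.0858 to 0.97, in CoCM against the cell groups Nfat5 -0.16 to 0.00929 and Slc6a12 -0.33 to 0.15.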

Other observations

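The other marker lists hold no gene that passed the adjusted threshold in any of the 5 comparisons. Red blood cell markers were lower at an unadjusted p under 0.05 in i.v. ABCB5+ against Ctrl for 6 of 7 genes, with a median log2 fold change of -2.14 (5.78% of all genes passed). Without animals 36, 37, 38 and 39 it was 2 of 7 markers (1.23% of all genes). In i.p. ABCB5+ against Ctrl it was 1 of 7 (1.77% of all genes). Ctrl animal 1 held the highest levels of 6 of these 7 genes with Hba-a1, an alpha globin, at 12799 TPM against a median of 827 TPM over all animals. In CoCM against Ctrl, where 11.9% of all genes passed, the early proximal tubule list had 3 of 5 genes lower at the unadjusted mark (median -0.62), the pelvis urothelium list 2 of 2 (median -1.93, and 2 of 2 with a median of -1.99 in i.v. ABCB5+ against Ctrl), the endothelial list 2 of 6 (median -0.32), and the podocyte list 1 of 6 (median -0.08). Ctrl animals 22 and 12 had the highest pelvis urothelium scores of their group, 3.66 and 1.90, and that score gave a two-sided exact permutation p of 0.268 for CoCM against Ctrl. The principal cell list had 2 of 7 higher (median 0.35). Without animals 36, 37, 38 and 39, when 16.9% of all genes passed, it had 0 of 7 higher (median 0.23). Lower then were 2 of 5 early proximal tubule (median -0.47), 3 of 4 pelvis urothelium (-2.70), 3 of 6 endothelial (-0.35) and 2 of 6 podocyte genes (-0.31). Thick ascending limb, outer stripe proximal, distal convoluted tubule, intercalated cell, injured tubule, macrophage and T cell, and myofibroblast lists had 0 genes past the unadjusted mark in CoCM against Ctrl, with medians of 0.33, 1.06, 0.32, 0.42, -0.08, -0.39 and -0.50. Without the 4 animals these lists again had 0 genes past the mark, with medians of 0.19, 0.69, -0.0064, 0.18, 0.16, -0.15 and -0.30.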
